A study of Mus musculus with 30 samples.

Results

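The response of the mouse soleus to 4 weeks of hindlimb unloading was described across genes in control mice. The samples were chosen by their titles, as the unloaded controls (7 mice) and the ambulatory controls (8 mice), which are 15 of the 30 soleus libraries of the study. Every control mouse was on the C57BL/6J background, was 3 to 4 months old, carried floxed alleles of both AMPKα1 and AMPKα2, the catalytic subunits of AMP-activated protein kinase, and carried no Cre. The controls therefore keep the kinase, and nothing in this comparison measures its loss. Ambulatory mice (3 males, 5 females) moved freely for 4 weeks, and unloaded mice (4 males, 3 females) spent those weeks with the hindlimbs kept off the ground. The other 15 libraries come from mice without AMPK in skeletal muscle (mKO) and are used only near the end. Nothing in the labels says which cages, litters or days the mice came from, so the p-values measure the spread between these 15 samples.

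The soleus is a small postural muscle of the calf that holds the ankle against body weight and is active during standing. Its fibres are mostly slow (type I) and fast oxidative (type IIA), rich in mitochondria and capillaries, while other hindlimb muscles of the mouse hold mainly fast glycolytic type IIX and IIB fibres. Unloading takes away weight bearing. The muscle then shrinks, and its slow fibres are known to take on features of fast ones. Fibre type is set by activity, in part through calcineurin, a phosphatase that calcium activates, and through PGC-1 and its partner receptors, which drive the genes of mitochondria.

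RNA was counted per gene, and the deposited counts summed to between 13.9 and 20.9 M per library, so for most genes named here the precision depends on how far mice differ. Sex, as read from the counts, matched the label in 15 of 15 mice. Levels are given as CPM, the usual scaling of counts to a common library size, and are compared only within a gene. A gene was called, and is said to have risen or fallen, when its Benjamini-Hochberg adjusted p in edgeR was below 0.05 over all genes tested, with sex in the model. A value after ± is a standard error (SE) beside a log2 change and a standard deviation (SD) beside a mean. The first principal component, with 35.2% of the variance, separated the groups except for ambulatory replicate 1, which lay among the unloaded mice, and unloaded replicate 2, which lay among the ambulatory ones. Sample titles end in a, b or c, which the labels do not explain. The ambulatory group holds 3, 2 and 3 mice of these letters and the unloaded group 2, 2 and 3.

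Unloading changed 3098 of 15808 genes tested (19.6%). Of these, 1552 were higher in unloaded mice (9.82%) and 1546 were lower (9.78%). The change was at least 2-fold in 308 genes that rose (1.95%) and 316 that fell (2% of those tested). Every unloaded mouse lay above every ambulatory mouse for 282 genes (1.78%) and below for 347 (2.2%), so 3.98% of genes separated the groups. The median log2 change over all genes tested was 0.0355. Within the letters a, b and c taken separately, 98.5% of the called genes had the same direction in all 3, against 51.2% of all genes tested; the calls and the letters use the same mice. These shares are the background against which the gene groups below are read. Counts near them, as in the atrophy ligase, autophagy and glycogen lists and in the proteasome falls, are not read as results about the list. The lists were written by role, with earlier results of these data known, and the members of each that passed the test are counted. A count above these shares is therefore not independent support. In bulk muscle, fewer cells of a kind and less RNA per cell cannot be told apart.

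**Figure D1:**
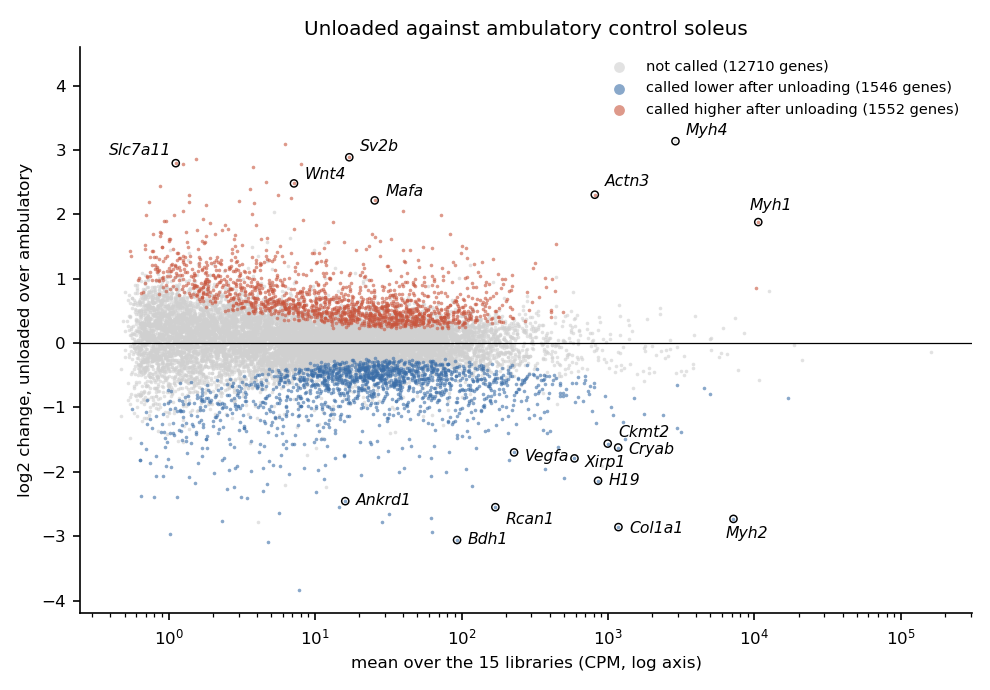
Each point is a gene, with its mean over the 15 libraries (CPM, log axis) against its log2 change in unloaded over ambulatory controls; red marks the 1552 genes called higher, blue the 1546 called lower and grey the genes not called. Among the abundant genes, Myh1 lies high at 1.88 and Myh2 low at -2.73, while Myh4 has the highest value, 3.14, without being called.

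The adult myosin heavy chains, the motors that set fibre type, changed places. Per kilobase of transcript, myosin 2A (Myh2, ENSMUSG00000033196) made up 26.7% to 45.6% of the 4 adult myosin heavy chains in ambulatory mice and 1.23% to 12.7% in unloaded mice. Myosin 2X (Myh1, ENSMUSG00000056328) went the opposite way, from 7.94% to 28.6% in ambulatory mice to between 34.2% and 65.9% in unloaded mice. Neither share overlapped between the groups. The mean of Myh2 went from 38.6% ± 6.32 (SD, n = 8) to 7.45% ± 5.40 (SD, n = 7), and that of Myh1 from 15.2% ± 6.64 to 49.97% ± 10.8. In a two-sided exact permutation test of the group means over 6435 assignments, with 5 such shares tested, each gave p = 0.000155, the smallest the design allows (adjusted p = 0.000388). Type IIX transcripts thus held the largest mean share after unloading, where slow and IIA transcripts had held most before.

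The slow myosin (Myh7, ENSMUSG00000053093) fell as a share, from 43.5% ± 11.9 (SD, n = 8) to 26.4% ± 8.46 (SD, n = 7; exact permutation p = 0.0087, adjusted p = 0.0109), with overlapping groups. Its level did not pass the gene test, and was called lower in 1 alternative, with the title letter added and ambulatory replicate 1 left out. It ran from 5690.2 CPM (lowest) over 13358 (median) to 18022 (highest) in ambulatory mice and from 4274 over 8346 to 12983 in unloaded mice (log2 -0.58 ± 0.28 SE, adjusted p = 0.153). Myosin 2B (Myh4, ENSMUSG00000057003) is scarce in the normal soleus. Its mean share rose by 13.5 percentage points, to 16.2% ± 4.72 (exact permutation p = 0.00109, adjusted p = 0.00182), and the ambulatory mean rests on replicate 1 at 17.0% and replicate 8 at 4.15%. The other 6 ambulatory mice held between 0.0471% and 0.118%, while every unloaded mouse held at least 9.51%. As a gene, Myh4 was not called (median 23.7 CPM in ambulatory and 4846 CPM in unloaded mice, log2 3.14 ± 1.30 SE, adjusted p = 0.109), and was called in 6 alternatives, among them without ambulatory replicate 1.

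**Figure D2:**
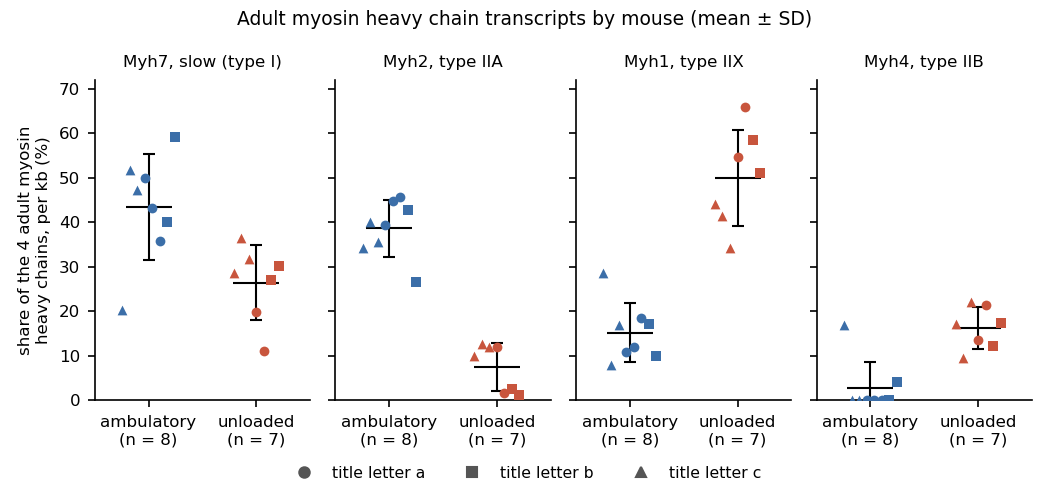
Share of each of 4 adult myosin heavy chains (%, counts per kilobase of transcript) by mouse, with blue for 8 ambulatory and red for 7 unloaded controls; bars are the mean ± SD and the marker gives the title letter. The Myh2 and Myh1 groups do not overlap, and ambulatory replicate 1 stands out at 17.0% Myh4.

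Of the other sarcomeric myosins 1 passed the test. Embryonic myosin (Myh3, ENSMUSG00000020908), which is made in developing and regenerating fibres, ran from 35.6 to 169.5 CPM (median 104) in ambulatory mice and from 8.65 to 22.4 CPM (median 15.7) in unloaded mice. The groups did not overlap, and it fell 6.57-fold (log2 -2.72 ± 0.38 SE, adjusted p = 0.000288). Perinatal Myh8 (log2 -0.83 ± 0.54 SE), cardiac Myh6 (-0.47 ± 0.26), the slow-type Myh7b (-0.56 ± 0.28), the extraocular Myh13 (0.24 ± 0.54) and Myh15 (-0.92 ± 0.63) did not pass, although Myh6 was called lower with the letter added and ambulatory replicate 1 left out. In all, of 10 sarcomeric myosins 1 rose and 2 fell. The long noncoding RNA Myhas, which lies antisense in the fast myosin cluster, measured 0.134 to 6.36 CPM in ambulatory mice and 2.98 to 32.3 CPM in unloaded mice. It rose 8.56-fold (log2 3.10 ± 0.56 SE, adjusted p = 0.00166), with ambulatory replicate 1 highest in its group and overlapping the unloaded mice. Sequences of the adult myosin genes resemble each other. Neither the treatment of shared reads nor the strand setting is given in the sources used here. Reads of Myhas and of the myosins around it may therefore be mixed.

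Slow-type sarcomere and calcium-handling genes were lower in unloaded mice. Of 16 tested 9 fell and 0 rose, all 16 had values below 0, and the median was -0.80, against 0.0355 for all genes. The essential light chain of slow and cardiac myosin, Myl3 (ENSMUSG00000059741), ran from 2218 over 3205 to 5003 CPM in ambulatory mice and from 841 over 1551 to 1744 CPM in unloaded mice. The groups did not overlap (fall of 2.17-fold, log2 -1.12 ± 0.20 SE, adjusted p = 0.00126). Slow troponin I, Tnni1, fell 1.98-fold, from a median of 1257 to 672 CPM (log2 -0.99 ± 0.24 SE, adjusted p = 0.0089). Casq2, the calcium store protein of slow fibres, fell 1.87-fold from a median of 223 to 128 CPM without overlap (log2 -0.90 ± 0.17 SE, adjusted p = 0.00138). Myoglobin, Mb, the oxygen carrier of oxidative fibres, fell 1.62-fold from a median of 5549.7 to 3422 CPM (log2 -0.70 ± 0.17 SE, adjusted p = 0.00755). With all 30 libraries of the study in 1 model 0 of the 16 were called, and with ambulatory mKO replicate 2 left out of that model 9 were called. Without the low-count filter 5 were called. The cause was not tested.

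Of 15 fast-type genes tested 4 rose, 0 fell and 11 were not called, with a median of 0.40. Values lay above 0 in 9 and below 0 in 6, and in 0 of them did the groups separate without overlap. Actn3 (ENSMUSG00000006457), the α-actinin of fast Z-discs, ran from 32.7 over 196 to 1152 CPM in ambulatory mice and from 415 over 1453 to 2209 CPM in unloaded mice. It rose 4.94-fold (log2 2.30 ± 0.64 SE, adjusted p = 0.0216), and only ambulatory replicate 1 reached into the unloaded range. Pvalb, the calcium buffer of fast fibres, rose 2.91-fold from a median of 152 to 771 CPM (log2 1.54 ± 0.42 SE, adjusted p = 0.0178), again with replicate 1, at 818 CPM, far above its group. Mylk2, the kinase of the myosin regulatory light chain, rose 1.99-fold from a median of 279 to 568 CPM (log2 0.99 ± 0.18 SE, adjusted p = 0.00137). The list's median was 0.71 and 0.92 in mice of letters a and b but -0.12 in mice of letter c, and that difference between letters was not tested. Actn3 was not called with the letter in the model, and neither Actn3 nor Pvalb was called without the filter on low counts (adjusted p = 0.0662 for Actn3, the highest over the alternatives, and 0.0675 for Pvalb), where 1 of the 15 rose. Skeletal α-actin, Acta1, the thin filament of all fibres, fell 1.81-fold from a median of 21709 to 12522 CPM (log2 -0.85 ± 0.25 SE, adjusted p = 0.023). It was not called without ambulatory replicate 7 or with all 30 libraries. Tpm2, β-tropomyosin, fell 1.74-fold from a median of 6149 to 4024 CPM (log2 -0.80 ± 0.22 SE, adjusted p = 0.018), and was not called with all 30 libraries either.

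Among 22 transcription factors known for fibre type, 5 rose and 2 fell. The large Maf factors drive type IIB myosin. Maf (ENSMUSG00000055435) ran from 31.6 over 36.6 to 49.1 CPM in ambulatory mice and from 63.3 over 91.3 to 108 CPM in unloaded mice, without overlap, and rose 2.33-fold (log2 1.22 ± 0.12 SE, adjusted p = 1.23e-05). Mafa ran from 2.54 to 18.5 CPM and from 10.2 to 68.5 CPM, and rose 4.65-fold (log2 2.22 ± 0.46 SE, adjusted p = 0.005). Eya4, a transcriptional cofactor of fast fibres, rose 3.00-fold from a median of 14.6 to 42.0 CPM without overlap (log2 1.58 ± 0.16 SE, adjusted p = 1.82e-05). In the other direction, Vgll2, a cofactor of the TEAD factors known to promote slow fibre genes, held at least 139.9 CPM in every ambulatory mouse and at most 86.3 CPM in unloaded mice. It fell 3.90-fold (log2 -1.96 ± 0.30 SE, adjusted p = 0.000457). Nr4a3, an orphan nuclear receptor that exercise induces, fell 4.98-fold from a median of 14.2 to 3.06 CPM without overlap (log2 -2.32 ± 0.36 SE, adjusted p = 0.000577). The count of 5 that rose was 3 without ambulatory replicate 7, without unloaded replicate 4 or 6, or with all 30 libraries.

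Calcineurin acts on NFAT factors in tonically active fibres, and Rcan1 is both its inhibitor and its transcriptional target. Rcan1 (ENSMUSG00000022951) ran from 171 over 308 to 348 CPM in ambulatory mice and from 34.7 over 45.8 to 71.0 CPM in unloaded mice, so the lowest ambulatory mouse was well above the highest unloaded one. It fell 5.86-fold (log2 -2.55 ± 0.19 SE, adjusted p = 1.32e-06). Rcan2 fell 1.66-fold, from a median of 119 to 74.4 CPM (log2 -0.74 ± 0.13 SE, adjusted p = 0.000911), a call lost with all 30 libraries. Of 22 calcineurin, NFAT and MEF2 genes 4 fell and 1 rose, with a median of -0.0406, so the falls of Rcan1, Rcan2 and Lmcd1 stand in a list whose other members had mostly small values. With all 30 libraries 2 of the 22 fell.

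Of 22 genes that sense or bear mechanical load in the sarcomere 10 fell and 0 rose after unloading (median -0.58), and in 7 the groups did not overlap, against 2.2% of all genes in that direction. Ankrd1, Ankrd2 and Ankrd23 encode ankyrin repeat proteins that sit on titin and carry stretch signals to the nucleus. Ankrd2 (ENSMUSG00000025172) ran from 404 over 536 to 938 CPM in ambulatory mice and from 78.5 over 121 to 282 CPM in unloaded mice (fall of 3.86-fold, log2 -1.95 ± 0.26 SE, adjusted p = 0.000111). Ankrd1 fell 5.49-fold from a median of 19.9 to 4.15 CPM (log2 -2.46 ± 0.44 SE, adjusted p = 0.00177), and Ankrd23 fell 2.56-fold from a median of 476 to 210.2 CPM (log2 -1.36 ± 0.14 SE, adjusted p = 2.03e-05). All 3 separated the groups without overlap.

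Xirp1 and Xirp2 encode actin-binding Xin proteins of the intercalated disc and of the muscle-tendon junction. Xirp1 (ENSMUSG00000079243) ran from 569 over 885 to 1177 CPM in ambulatory mice and from 145 over 259 to 394 CPM in unloaded mice, and fell 3.46-fold (log2 -1.79 ± 0.24 SE, adjusted p = 0.000103). Xirp2 fell 1.58-fold (log2 -0.66 ± 0.21 SE, adjusted p = 0.0358), a call that 12 of 26 alternatives did not make. Filamin C, Flnc, which crosslinks actin at the Z-disc, fell 2.61-fold from a median of 3979 to 1597 CPM without overlap (log2 -1.38 ± 0.26 SE, adjusted p = 0.00138). Lmcd1, a LIM protein that promotes calcineurin signalling, fell 2.04-fold from a median of 370.1 to 182 CPM, also without overlap (log2 -1.03 ± 0.16 SE, adjusted p = 0.000411). Fhl2, a LIM-domain adaptor, fell 2.26-fold from a median of 21.4 to 8.69 CPM (log2 -1.18 ± 0.21 SE, adjusted p = 0.000999), and Ldb3, a Z-disc protein, fell 1.80-fold from a median of 1859 to 1054 CPM (log2 -0.85 ± 0.16 SE, adjusted p = 0.00177). The call of Ldb3 was lost with all 30 libraries.

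The CArG box is the short sequence bound by serum response factor, which load and actin dynamics control. It was searched in the 250 bases before each gene's start, in the RefSeq promoters of GRCm38.p6, an earlier build than the one the counts were made on. It was found in 5 of the 19 load-sensing genes with a promoter (26.3%), against 1.46% of the 10645 tested genes with a promoter, 2.01% of those that fell and 0.924% of those that rose. The stretches around it in 3 members that fell are shown because their falls are described above, with the box in capitals. They lie at chr6:112273513-112273582 (plus strand) for Lmcd1, chr1:43163962-43164022 (minus strand) for Fhl2 and chr14:34588682-34588746 (minus strand) for Ldb3.
Lmcd1: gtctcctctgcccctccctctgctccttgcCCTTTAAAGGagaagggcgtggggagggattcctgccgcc
Fhl2: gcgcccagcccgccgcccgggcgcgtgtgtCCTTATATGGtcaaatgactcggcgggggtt
Ldb3: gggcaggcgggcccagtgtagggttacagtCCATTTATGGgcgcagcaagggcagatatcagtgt
These are matches of letters only. The other matches were Fhl1 (log2 -0.49 ± 0.19 SE, adjusted p = 0.0712) and Actc1 (0.09 ± 0.26, adjusted p = 0.849), which did not pass the test. No box was found for Ankrd1, Ankrd2, Ankrd23, Flnc, Synpo2l or Xirp2, which fell. A link between the box and the falls was not tested.

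**Figure D3:**
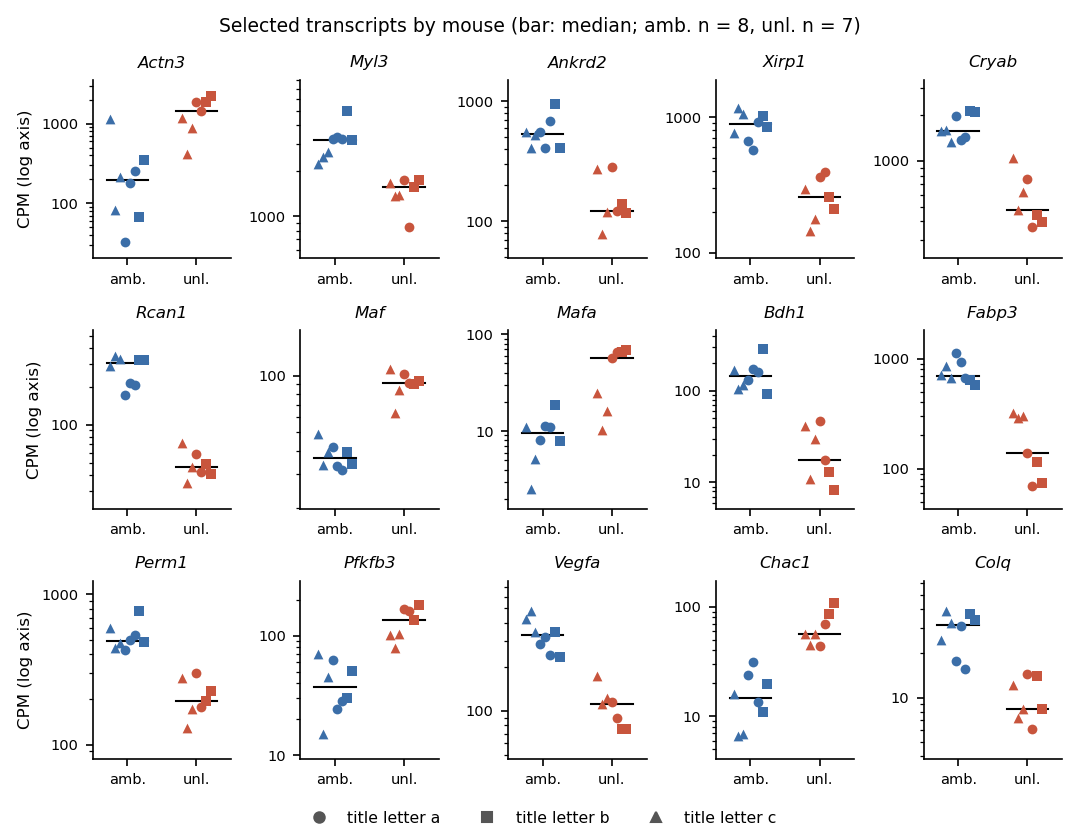
Level of 15 transcripts by mouse (CPM, log axis), blue for ambulatory and red for unloaded controls, with a bar at the group median and the marker giving the title letter. Rcan1, Xirp1, Ankrd2, Bdh1 and Maf separate the groups, while the ambulatory point highest for Actn3, replicate 1 at 1152 CPM, lies inside the unloaded range.

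Heat shock proteins and their partners, which hold contractile and other proteins in shape in working muscle, were lower as a group. Of 28 tested 17 fell and 0 rose (median -0.48), 27 had values below 0, and in 7 the groups did not overlap. Cryab (ENSMUSG00000032060), αB-crystallin, a small heat shock protein of oxidative fibres, ran from 1337 over 1574 to 2126 CPM in ambulatory mice and from 366 over 477 to 1045 CPM in unloaded mice. It fell 3.08-fold without overlap (log2 -1.62 ± 0.23 SE, adjusted p = 0.000165). The inducible Hsp70 genes Hspa1a and Hspa1b are near-identical copies, so their reads may be split between them. Hspa1a went from a median of 28.8 to 7.79 CPM (log2 -2.06 ± 0.25 SE, adjusted p = 8.48e-05) and Hspa1b from 17.4 to 4.61 CPM (log2 -2.12 ± 0.25 SE, adjusted p = 4.56e-05). The neighbouring Hspa1l fell 3.09-fold from a median of 56.8 to 19.2 CPM (log2 -1.63 ± 0.16 SE, adjusted p = 1.31e-05). Hspb1, or Hsp25, fell 2.25-fold from a median of 161 to 68.1 CPM (log2 -1.17 ± 0.17 SE, adjusted p = 0.000254), with pseudogene copies that the counting could mix with it.

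Heat shock factors bind inverted repeats of GAA. The palindrome GAANNTTC, the same on both strands, was found within 250 bases before the start in 9 of the 23 genes of this list with a promoter (39.1%), against 6.04% of the 10645 tested genes with a promoter, 5.36% of those that fell and 6.37% of those that rose. The stretch of Hspb1, at chr5:135887772-135887859 (plus strand), holds it at 2 places, and that of Hspa1b, at chr17:34959305-34959372 (minus strand), reads the same as that of Hspa1a. They are shown, with the motif in capitals, as members that fell.
Hspb1: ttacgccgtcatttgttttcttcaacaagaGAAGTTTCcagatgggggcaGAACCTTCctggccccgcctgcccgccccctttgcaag
Hspa1b: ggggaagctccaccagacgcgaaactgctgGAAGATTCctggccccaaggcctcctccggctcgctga
The same motif stands in the promoters of Dnaja1 (log2 -0.05 ± 0.15 SE, adjusted p = 0.847), Fkbp4 (-0.38 ± 0.16, adjusted p = 0.112) and Hspe1 (-0.22 ± 0.15, adjusted p = 0.309), which did not pass. The stretch of Hspe1 is that of Hspd1, which fell (log2 -0.45), read on the other strand. Both genes are counted among the 9, as are Hspa1a and Hspa1b, so the 9 are not all separate sequences. Members with a promoter that fell without the motif were Hspa1l, Hspb7, Bag3, Hsph1, Dnajb4, Stip1, Hspa4 and Ahsa1. Whether the motif goes with the falls was not tested.

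Among genes of fuel oxidation falls outnumbered rises in each nuclear list, from the regulators and fat uptake to the respiratory chain, with many members not called. Of 20 PGC-1, ERR and PPAR regulators 7 fell and 1 rose (median -0.26). Perm1 (ENSMUSG00000078486), a muscle regulator that acts with PGC-1 and ERR, ran from 427 over 487 to 773 CPM in ambulatory mice and from 128 over 194 to 299 CPM in unloaded mice. It fell 2.63-fold without overlap (log2 -1.40 ± 0.17 SE, adjusted p = 5.22e-05). Ppara, the receptor that turns on fatty acid oxidation, fell 2.37-fold from a median of 75.6 to 33.8 CPM (log2 -1.25 ± 0.18 SE, adjusted p = 0.000212), and Esrrg, the receptor ERRγ of oxidative fibres, fell 2.30-fold from a median of 124 to 51.0 CPM (log2 -1.20 ± 0.20 SE, adjusted p = 0.000569). Mlxipl, the sugar-sensing factor ChREBP, fell 1.95-fold from a median of 175 to 93.5 CPM (log2 -0.97 ± 0.13 SE, adjusted p = 0.000103). None of these overlapped between the groups. Ppargc1a, which encodes PGC-1α, fell 3.10-fold from a median of 141 to 58.0 CPM with overlap (log2 -1.63 ± 0.33 SE, adjusted p = 0.00354). Its highest ambulatory value, 481 CPM, was in replicate 1, the same mouse that was high in Myh4.

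In uptake and transport of fatty acids 9 of 24 genes fell and 2 rose (median -0.41). Fabp3 (ENSMUSG00000028773), the fatty acid carrier of heart and oxidative muscle, ran from 574 over 693 to 1136 CPM in ambulatory mice and from 69.2 over 138 to 319 CPM in unloaded mice. It fell 4.29-fold without overlap (log2 -2.10 ± 0.35 SE, adjusted p = 0.0008), and processed copies of this gene in the genome could take part of its reads. Mgll, monoacylglycerol lipase, fell 2.02-fold from a median of 125 to 66.7 CPM without overlap (log2 -1.01 ± 0.10 SE, adjusted p = 1.79e-05), a call lost with all 30 libraries. Cpt2, the inner carnitine transferase, fell 1.65-fold (log2 -0.72 ± 0.15 SE, adjusted p = 0.00282), while Acsl6, an acyl-CoA synthetase, rose 2.85-fold from a median of 11.0 to 44.9 CPM (log2 1.51 ± 0.31 SE, adjusted p = 0.00373). The 9 falls were 5 without unloaded replicate 6, 5 with 29 libraries (ambulatory mKO replicate 2 left out) and 2 with all 30. In β-oxidation itself 14 of 19 genes fell and 0 rose (median -0.62), or 9 with all 30 libraries. Eci1, the enoyl-CoA isomerase, fell 1.88-fold from a median of 139 to 76.4 CPM (log2 -0.91 ± 0.12 SE, adjusted p = 9.52e-05) and Acaa2, the thiolase of the matrix, 1.98-fold from 265 to 115 CPM at the median (log2 -0.99 ± 0.16 SE, adjusted p = 0.000446), both without overlap.

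Ketone bodies are burned by Bdh1 and Oxct1 in sequence. Bdh1 (ENSMUSG00000046598) ran from 91.9 over 146 to 287 CPM in ambulatory mice and from 8.31 over 17.4 to 46.8 CPM in unloaded mice, without overlap. Its fall of 8.34-fold (log2 -3.06 ± 0.25 SE, adjusted p = 4.95e-06) was the largest among called genes that have a proper symbol and average 1 CPM or more. Oxct1 fell 2.25-fold from a median of 446 to 212 CPM, also without overlap (log2 -1.17 ± 0.13 SE, adjusted p = 2.43e-05). Of the 7 ketone genes 3 fell and 0 rose. In the tricarboxylic acid cycle and the pyruvate step before it 14 of 30 genes fell and 1 rose (median -0.42), or 8 fell with all 30 libraries. Idh2, the mitochondrial isocitrate dehydrogenase, fell 2.37-fold from a median of 1136 to 517 CPM (log2 -1.25 ± 0.20 SE, adjusted p = 0.000544), and Mdh1, the cytosolic malate dehydrogenase of the malate shuttle, 1.87-fold from 840.0 to 448 CPM at the median (log2 -0.90 ± 0.15 SE, adjusted p = 0.00069). Pdp1, the phosphatase that activates pyruvate dehydrogenase, was the member that rose, 2.04-fold from a median of 34.8 to 79.5 CPM without overlap (log2 1.03 ± 0.15 SE, adjusted p = 0.000293).

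The nuclear genes of the respiratory chain and ATP synthase all pointed downward. Of 59 tested 40 fell, 0 rose and 59 had values below 0, with a median of -0.55 and a range of -1.05 to -0.000623. Cox7a1, the cytochrome oxidase subunit of heart and skeletal muscle, was the lowest, with 112 over 174 to 234 CPM in ambulatory mice and 65.9 over 82.1 to 141 CPM in unloaded mice (fall of 2.07-fold, log2 -1.05 ± 0.16 SE, adjusted p = 0.000314). Its groups overlapped. Ndufs8 of complex I (log2 -0.84 ± 0.11 SE, adjusted p = 7.28e-05) and Atp5g1 of ATP synthase (-0.94 ± 0.15, adjusted p = 0.000371) fell without overlap, and Uqcrq of complex III fell with overlap (-0.83 ± 0.13, adjusted p = 0.000411). Of 78 mitochondrial ribosomal proteins 44 fell and 0 rose, with a median of -0.40. Among them Mrpl34 fell 2.19-fold from a median of 21.1 to 9.87 CPM (log2 -1.13 ± 0.13 SE, adjusted p = 4.44e-05). With all 30 libraries these counts were 18 of 59 and 26 of 78. Ckmt2 (ENSMUSG00000021622), the mitochondrial creatine kinase that passes phosphate from the chain to the cytosol, ran from 972 over 1421 to 2089 CPM in ambulatory mice and from 333 over 509.8 to 723 CPM in unloaded mice. It fell 2.95-fold without overlap (log2 -1.56 ± 0.18 SE, adjusted p = 3.2e-05).

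Transcripts encoded by mitochondrial DNA did not shift together. Of 13 tested 1 rose and 1 fell. Together they took 4.70% ± 1.62 of counts (SD, n = 8) in ambulatory mice and 4.34% ± 0.942 (SD, n = 7) in unloaded mice, a difference of -0.362 percentage points that did not pass (two-sided exact permutation p = 0.62). Ambulatory replicate 1 held the highest share, 7.54%, and ambulatory replicate 7 the lowest, 1.78%. Without replicate 1 the difference was 0.0433 points, with the opposite sign (exact permutation p = 0.943). The list's median was 0.12, 0.41 and -0.71 in mice of letters a, b and c. The gene mt-Nd6, the only protein gene on the light strand, fell 2.11-fold (log2 -1.08 ± 0.27 SE, adjusted p = 0.00987), and its value depends on how strand was counted. The calls of mt-Atp8 (higher, log2 0.80 ± 0.27 SE, adjusted p = 0.0465) and of the ribosomal RNA mt-Rnr2 (higher, log2 0.86 ± 0.28 SE, adjusted p = 0.0417) were each lost in 14 of 26 alternatives.

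**Figure D4:**
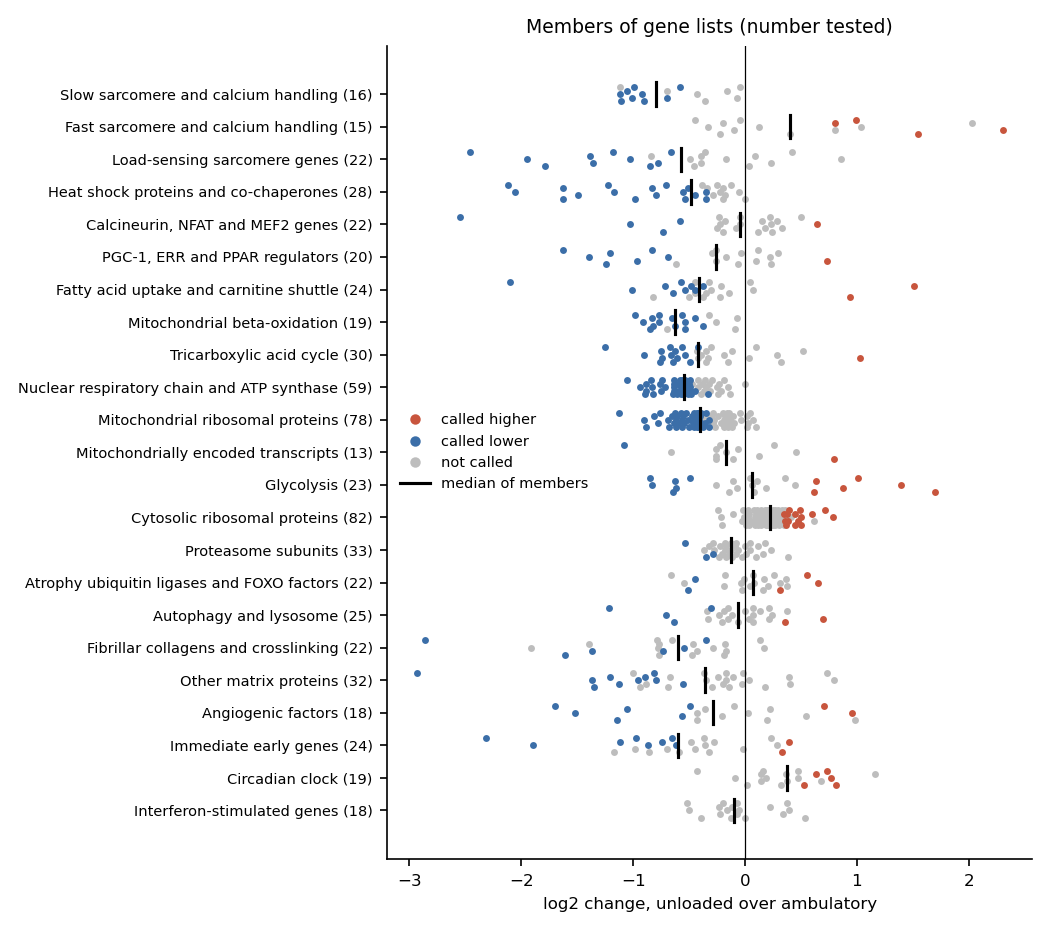
Each point is a member of 1 of 23 gene lists placed by its log2 change in unloaded over ambulatory controls, red where called higher, blue where called lower and grey where not called; the vertical bar is the median of the list and the number tested is in parentheses. The respiratory chain, with a median of -0.55, lies wholly to the left of 0, and cytosolic ribosomal proteins, at 0.22, mostly to the right.

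Glycolysis did not move as a block: of 23 genes 6 rose and 6 fell (median 0.0609). Pfkfb3 (ENSMUSG00000026773) makes the sugar phosphate that activates phosphofructokinase. It ran from 15.0 over 37.6 to 70.1 CPM in ambulatory mice and from 78.9 over 137 to 181 CPM in unloaded mice, and rose 3.24-fold without overlap (log2 1.70 ± 0.31 SE, adjusted p = 0.00154). Gpd2, which passes cytosolic electrons to the respiratory chain, rose 1.84-fold (log2 0.88 ± 0.16 SE, adjusted p = 0.00143). The falls included isoforms that are minor in muscle. Pgam1 fell 1.80-fold from a median of 10.3 to 5.40 CPM (log2 -0.85 ± 0.12 SE, adjusted p = 0.000163) and Pfkl, the liver-type phosphofructokinase, 1.54-fold from 16.1 to 10.2 CPM at the median (log2 -0.63 ± 0.11 SE, adjusted p = 0.00106), both without overlap. With all 30 libraries 2 falls were called, and Pfkl was not. In glycogen handling 2 of 23 genes rose and 2 fell, near the 9.82% and 9.78% over all genes tested. Phkg1, the catalytic subunit of muscle phosphorylase kinase, rose 2.35-fold from a median of 67.5 to 165 CPM without overlap (log2 1.23 ± 0.15 SE, adjusted p = 5.13e-05).

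The catalytic AMPK genes were floxed but intact in these mice. Prkaa2 (ENSMUSG00000028518), the α2 subunit, ran from 169.9 over 209.8 to 253 CPM in ambulatory mice and from 135 over 251 to 346 CPM in unloaded mice and was not called (log2 0.26 ± 0.17 SE, adjusted p = 0.307). Prkaa1 (ENSMUSG00000050697), the α1 subunit, went from a median of 20.7 to 23.9 CPM and was called higher by 1.25-fold (log2 0.32 ± 0.10 SE, adjusted p = 0.0313), a call that 12 of 26 alternatives did not make. The γ3 subunit Prkag3, which belongs to fast glycolytic fibres, rose 3.22-fold from a median of 11.4 to 36.6 CPM (log2 1.69 ± 0.25 SE, adjusted p = 0.000343). Only ambulatory replicate 1, at 23.2 CPM, reached into the unloaded range. Of 11 AMPK subunits and upstream kinases 2 rose and 2 fell.

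Ubiquitin ligases known from muscle atrophy gave few calls after 4 weeks. Of 22 ligases and FOXO genes 3 rose and 2 fell (median 0.0741), beside 9.82% higher and 9.78% lower over all genes tested. Counts this near those shares are not read as a result about the ligases. Trim63, or MuRF1, ran from 158 over 232 to 637 CPM in ambulatory mice and from 125 over 172 to 270.0 CPM in unloaded mice (log2 -0.66 ± 0.28 SE, adjusted p = 0.106). Fbxo32, or atrogin-1, ran from 315 over 537 to 678 CPM and from 323 over 733 to 901 CPM (log2 0.37 ± 0.23 SE, adjusted p = 0.259). Neither passed, and both were taken up after their values were seen because they are the usual markers of atrophy. Trim63 was called lower without ambulatory replicate 5, and Fbxo32 was called higher with the letter added and ambulatory replicate 1 left out. Cblb, a ligase that acts on insulin receptor substrate in unloaded muscle, rose 1.47-fold (log2 0.56 ± 0.16 SE, adjusted p = 0.0231), a call lost without ambulatory replicate 5 or 7 or unloaded replicate 1 or 2. Fbxo40 fell 1.42-fold (log2 -0.51 ± 0.14 SE, adjusted p = 0.0193), a call lost with all 30 libraries. The 3 rises were 1 without ambulatory replicate 5 or 7, without unloaded replicate 4, 5, 6 or 7, without the low-count filter or with all 30 libraries, and 5 with the letter added and ambulatory replicate 1 left out.

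Autophagy and lysosome genes gave 2 rises and 4 falls among 25, and proteasome subunits 3 falls and 0 rises among 33. Over all genes tested 9.82% were higher and 9.78% lower. The proteasome falls are near that share and are not read as a result about the subunits. Gabarapl1, which coats autophagosomes, fell 2.32-fold from a median of 113 to 44.4 CPM without overlap (log2 -1.21 ± 0.15 SE, adjusted p = 7.89e-05). Ctsl, the lysosomal protease cathepsin L, rose 1.62-fold from a median of 89.3 to 141 CPM without overlap (log2 0.70 ± 0.11 SE, adjusted p = 0.000533). Psmb5, a catalytic proteasome subunit, fell 1.45-fold (log2 -0.54 ± 0.13 SE, adjusted p = 0.00949). The 3 proteasome falls were 1 without any of ambulatory replicates 1, 4, 7 or 8 or unloaded replicates 3, 5 or 7 and without the low-count filter, 0 with all 30 libraries, where Psmb5 was not called, and 5 or 6 with DESeq2 or the letter added.

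Growth factor and myostatin pathway genes gave 4 rises and 7 falls among 29. Both adaptors of the insulin receptor fell. Irs1 went from a median of 143 to 80.3 CPM, a fall of 1.66-fold (log2 -0.73 ± 0.17 SE, adjusted p = 0.00674), and Irs2 from 131 to 68.8 CPM, a fall of 1.80-fold (log2 -0.85 ± 0.16 SE, adjusted p = 0.00142). Acvr1b, a type I receptor for myostatin and activin, rose 2.06-fold from a median of 24.8 to 50.7 CPM (log2 1.04 ± 0.23 SE, adjusted p = 0.00545). Among 21 mTORC1 regulators 4 rose and 3 fell, or 6 fell with the letter added. Ddit4l, an inhibitor of mTORC1 related to REDD1, rose 3.97-fold from a median of 24.6 to 112 CPM (log2 1.99 ± 0.29 SE, adjusted p = 0.000407). Rps6kb1, the S6 kinase downstream of mTORC1, rose 1.45-fold without overlap (log2 0.53 ± 0.11 SE, adjusted p = 0.00394), and Pik3r1, the regulatory subunit of PI3 kinase, 1.99-fold from a median of 127 to 296 CPM (log2 0.99 ± 0.17 SE, adjusted p = 0.000778).

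Cytosolic ribosomal proteins gave small rises: 15 of 82 rose, 0 fell, 75 had values above 0 and the median was 0.22. Rps25 rose 1.73-fold (log2 0.79 ± 0.15 SE, adjusted p = 0.00196) and Rpl5 1.41-fold without overlap (log2 0.50 ± 0.11 SE, adjusted p = 0.0037). Many genes of this family have processed copies that can share reads. The count of 15 was 6 with all 30 libraries, 8 or 9 without ambulatory replicate 5, 6 or 7, unloaded replicate 1, 2, 4, 5 or 6 or the low-count filter, and 25 without ambulatory replicate 1. It was 27 in limma and 28 with the letter added and ambulatory replicate 1 left out.

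Matrix transcripts had list medians below 0 and varied widely between mice. Of 22 fibrillar collagens and crosslinking genes 6 fell and 0 rose (median -0.60), of 32 other matrix proteins 10 fell and 0 rose (-0.36), and of 20 matrix proteases and inhibitors 6 fell and 0 rose (-0.31). Col1a1 (ENSMUSG00000001506), a chain of type I collagen, ran from 183 over 1552 to 5609 CPM in ambulatory mice and from 63.0 over 172 to 939 CPM in unloaded mice. It fell 7.26-fold (log2 -2.86 ± 0.79 SE, adjusted p = 0.0214) with wide overlap, and was not called with the letter in the model or without the low-count filter. The collagen median was -1.14 and -0.81 in letters a and b but 0.0177 in letter c. For the other matrix proteins it was -0.95, -0.89 and 0.0309 in letters a, b and c, and for the proteases and inhibitors -0.65, -0.44 and -0.0712. Markers of tenocytes, the cells of tendon, followed the same letters, with medians of -1.92, -1.83 and 0.81. The summed level of all 10 tenocyte markers ran from 213 to 2957 CPM in ambulatory mice and from 117 to 3625 CPM in unloaded mice. Their part in the collagen result was not tested. The 6 collagen falls were 10 without ambulatory replicate 1, 12 without unloaded replicate 2, 10 with DESeq2 and 11 with limma.

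Other matrix genes included several whose groups did not overlap. Col15a1, a collagen of the fibre's basement membrane, fell 2.55-fold from a median of 92.8 to 33.7 CPM without overlap (log2 -1.35 ± 0.19 SE, adjusted p = 0.000157), and Col4a1 of the same layer 2.18-fold from 385 to 206 CPM at the median (log2 -1.12 ± 0.21 SE, adjusted p = 0.00161). Adamts1, a protease that cuts proteoglycans, fell 3.38-fold from a median of 77.0 to 20.1 CPM without overlap (log2 -1.76 ± 0.19 SE, adjusted p = 2.78e-05). Adamtsl5, a secreted relative of these proteases that binds fibrillin, had the smallest p of all named genes. It ran from 101 over 119 to 161 CPM in ambulatory mice and from 31.1 over 37.7 to 47.8 CPM in unloaded mice, a fall of 3.22-fold (log2 -1.68 ± 0.12 SE, adjusted p = 5.13e-07). Papln, papilin, fell 6.23-fold from a median of 8.22 to 1.38 CPM without overlap (log2 -2.64 ± 0.30 SE, adjusted p = 3.59e-05). Periostin, Postn, fell 7.65-fold from a median of 93.5 to 11.8 CPM with overlap (log2 -2.94 ± 0.55 SE, adjusted p = 0.00254), Sparc, a collagen-binding protein, 2.59-fold (log2 -1.37 ± 0.32 SE, adjusted p = 0.00744) and Adamts8 6.29-fold (log2 -2.65 ± 0.71 SE, adjusted p = 0.0188). Scx, the transcription factor of tendon cells, was the only 1 of the 10 tenocyte markers to pass, with a fall of 3.34-fold from a median of 22.5 to 6.99 CPM and no overlap (log2 -1.74 ± 0.27 SE, adjusted p = 0.000445).

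**Figure D5:**
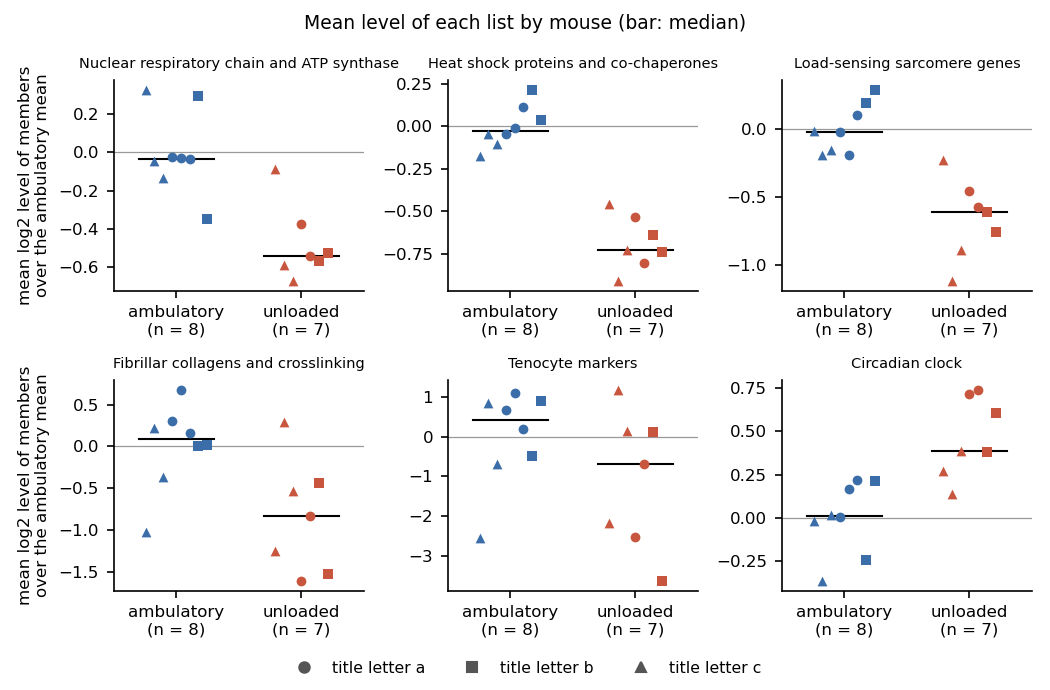
Mean log2 level of the members of 6 lists by mouse, relative to the ambulatory mean, with a bar at the group median and the marker giving the title letter. Heat shock proteins separate the groups without overlap, whereas tenocyte markers spread widely within both groups.

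Of 18 angiogenic factors 6 fell, 2 rose and 10 were not called. Vegfa (ENSMUSG00000023951), the main angiogenic factor of muscle fibres, ran from 233 over 330.3 to 483 CPM in ambulatory mice and from 75.3 over 111 to 174 CPM in unloaded mice. It fell 3.25-fold without overlap (log2 -1.70 ± 0.19 SE, adjusted p = 3.24e-05). Vegfb fell 2.22-fold from a median of 108 to 52.9 CPM (log2 -1.15 ± 0.18 SE, adjusted p = 0.000384). Kdr, the endothelial receptor for Vegfa, fell 2.08-fold from a median of 68.1 to 32.5 CPM (log2 -1.06 ± 0.15 SE, adjusted p = 0.000237), and the endothelial co-receptor Eng 1.72-fold (log2 -0.78 ± 0.13 SE, adjusted p = 0.000772). Of 13 endothelial markers 4 fell and 0 rose, and their summed level ran from 653 to 975 CPM in ambulatory mice and from 538 to 744 CPM in unloaded mice. Of 11 pericyte and smooth muscle markers 6 fell, a count of 2 or 3 without any of ambulatory replicates 2, 3, 5, 7 and 8 or unloaded replicates 6 and 7. The summed level of 10 of them, with Des left out, overlapped between the groups and had a higher median in unloaded mice. It ran from 703 over 778 to 919 CPM in ambulatory mice and from 649 over 844 to 948 CPM in unloaded mice. The part of vessel cells in the falls of Kdr and Eng was not tested.

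Genes of the neuromuscular junction and of denervation gave 4 rises and 2 falls among 19. Colq (ENSMUSG00000057606), the collagen tail that anchors acetylcholinesterase at the synapse, ran from 15.8 over 31.4 to 39.2 CPM in ambulatory mice and from 6.12 over 8.31 to 14.4 CPM in unloaded mice. It fell 2.90-fold without overlap (log2 -1.54 ± 0.24 SE, adjusted p = 0.000453). Hdac4, a repressor that nerve loss induces, rose 2.11-fold from a median of 114 to 254 CPM (log2 1.07 ± 0.19 SE, adjusted p = 0.00112), Lrp4, the agrin receptor, 1.64-fold (log2 0.72 ± 0.16 SE, adjusted p = 0.00502) and Gadd45a, another gene of denervated muscle, 2.01-fold from a median of 5.39 to 8.63 CPM without overlap (log2 1.01 ± 0.25 SE, adjusted p = 0.00967). Among 20 potassium and chloride channels and pumps 2 rose and 5 fell, or 2 fell with all 30 libraries. Kcnn2, a calcium-activated potassium channel, rose 2.64-fold from a median of 3.68 to 9.72 CPM (log2 1.40 ± 0.16 SE, adjusted p = 4.32e-05). Of 19 genes of excitation-contraction coupling 3 rose and 2 fell, or 0 rose with all 30 libraries. Among them Clcn1, the chloride channel that steadies the resting fibre, rose 1.72-fold from 131 to 230.2 CPM at the median (log2 0.78 ± 0.13 SE, adjusted p = 0.000827). Neither Kcnn2 nor Clcn1 overlapped between the groups.

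Stress and signal genes moved in both directions. Of 24 immediate early genes, which activity induces within minutes, 8 fell and 2 rose (median -0.60). Atf3 fell 3.71-fold from a median of 14.9 to 4.20 CPM without overlap (log2 -1.89 ± 0.31 SE, adjusted p = 0.000756), and Jun 1.67-fold (log2 -0.74 ± 0.13 SE, adjusted p = 0.00108). The cytokine receptor Tnfrsf12a, which receives the signal TWEAK, fell 6.85-fold from a median of 43.6 to 5.33 CPM without overlap (log2 -2.78 ± 0.44 SE, adjusted p = 0.000778). Of 27 genes of the NRF2 and glutathione system 6 rose and 2 fell. The cystine carrier Slc7a11 rose 6.94-fold from a median of 0.250 to 2.15 CPM (log2 2.79 ± 0.41 SE, adjusted p = 0.000249), with at least 1 ambulatory mouse at 0 counts. Gstm1, a glutathione transferase, rose 1.66-fold (log2 0.73 ± 0.11 SE, adjusted p = 0.000237), and Prdx6, a peroxiredoxin, fell 1.48-fold (log2 -0.57 ± 0.09 SE, adjusted p = 0.000393), both without overlap.

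In the integrated stress and unfolded protein responses 2 of 22 genes rose and 5 fell. Chac1 (ENSMUSG00000027313), which breaks down glutathione, ran from 6.55 over 14.8 to 31.3 CPM in ambulatory mice and from 44.0 over 57.0 to 109 CPM in unloaded mice, and rose 4.13-fold without overlap (log2 2.05 ± 0.33 SE, adjusted p = 0.000858). Psat1, an enzyme of serine synthesis, rose 2.11-fold from a median of 5.09 to 10.8 CPM (log2 1.08 ± 0.17 SE, adjusted p = 0.000498). Ddit3, or CHOP, a target of the same response, fell 1.82-fold from a median of 21.4 to 12.3 CPM (log2 -0.87 ± 0.17 SE, adjusted p = 0.00224). The 5 falls were 3 without ambulatory replicate 2, 7 or 8 or unloaded replicate 5, 6 or 7, and 9 with the letter added and ambulatory replicate 1 left out. Of 19 p53 targets and growth arrest genes 4 rose and 2 fell. Trp63 rose 3.69-fold from a median of 5.75 to 18.5 CPM without overlap (log2 1.88 ± 0.25 SE, adjusted p = 0.000134), and Phlda3, an inhibitor of Akt, fell 2.68-fold (log2 -1.42 ± 0.21 SE, adjusted p = 0.00023). None of 18 interferon-stimulated genes was called by edgeR.

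Clock genes leaned upward, with 5 of 19 higher, 0 lower and a median of 0.38. Rora, a receptor that drives the clock gene Arntl, rose 1.56-fold from a median of 109 to 162 CPM (log2 0.64 ± 0.15 SE, adjusted p = 0.00688). Hlf, an output factor of the clock, rose 1.66-fold (log2 0.73 ± 0.21 SE, adjusted p = 0.0213), and was not called without ambulatory replicate 7. Levels of Arntl and Dbp differed between title letters, and in another order in each group. Arntl, the core activator, measured 12.8 to 20.7 CPM in ambulatory mice of letter a, 26.6 to 34.9 CPM in those of letter b and 38.7 to 64.0 CPM in those of letter c. In unloaded mice it measured 34.8 to 43.7 CPM in letter a, 28.5 to 39.8 CPM in letter b and 13.4 to 33.4 CPM in letter c, so that it was higher than in ambulatory mice in letter a and lower in letter c. Dbp, which peaks in the opposite phase, measured 111 to 164 CPM in ambulatory mice of letter a and 27.0 to 39.5 CPM in those of letter c, against 102 to 104 CPM and 86.4 to 128 CPM in unloaded mice of letters a and c. These differences between letters were not tested. With the letter in the model 8 of the 19 rose. Neither Arntl (log2 -0.09 ± 0.34 SE, adjusted p = 0.884) nor Dbp (0.15 ± 0.39, adjusted p = 0.83) was called, and both were taken up after their values were seen. The 5 rises were 1 without ambulatory replicate 7, 2 without ambulatory replicate 3 or unloaded replicate 2, 3 or 4, and 3 without unloaded replicate 5 or 7 or the low-count filter.

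Among the largest changes outside these groups, Sv2b (ENSMUSG00000053025), a synaptic vesicle protein, ran from 2.47 over 4.04 to 8.42 CPM in ambulatory mice and from 19.7 over 28.6 to 45.9 CPM in unloaded mice, and rose 7.40-fold (log2 2.89 ± 0.25 SE, adjusted p = 1.09e-05). Gabrr2, a GABA receptor subunit, rose 5.67-fold (log2 2.50 ± 0.38 SE, adjusted p = 0.000387) and the ligand Wnt4 5.58-fold from a median of 2.38 to 15.2 CPM (log2 2.48 ± 0.43 SE, adjusted p = 0.00116). Stum rose 4.94-fold (log2 2.30 ± 0.38 SE), Nek10 4.79-fold (2.26 ± 0.62), Crip3 4.61-fold (2.21 ± 0.37), Ccdc192 6.85-fold (2.78 ± 0.41) and the urate carrier Slc22a12 4.57-fold (2.19 ± 0.47) with unloaded medians between 2.01 CPM for Ccdc192 and 11.0 CPM for Stum. Nek10 was not called without the low-count filter. Of these, Sv2b, Gabrr2, Stum and Ccdc192 separated the groups. Atrnl1 was tight in ambulatory mice, at 43.2 to 46.5 CPM, and rose 1.96-fold to between 71.2 and 102 CPM (log2 0.97 ± 0.09 SE, adjusted p = 1.09e-05).

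Among the falls, H19 (ENSMUSG00000000031), an imprinted noncoding RNA that is abundant in developing muscle, ran from 775 over 1360.5 to 2039 CPM in ambulatory mice and from 133 over 313 to 360.1 CPM in unloaded mice. It fell 4.41-fold without overlap (log2 -2.14 ± 0.22 SE, adjusted p = 1.82e-05). Mad2l1bp fell 2.55-fold from a median of 18.1 to 7.64 CPM without overlap (log2 -1.35 ± 0.13 SE, adjusted p = 1.23e-05), and Lrrc52 5.84-fold from a median of 20.6 to 4.13 CPM (log2 -2.55 ± 0.42 SE, adjusted p = 0.001). Slc6a18, an amino acid transporter family gene, fell 7.83-fold (log2 -2.97 ± 0.46 SE, adjusted p = 0.000387) from 1.09 to 2.77 CPM in ambulatory mice to between 0 and 0.461 CPM, a level of a few counts per library.

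Markers of other cells in the dissection were tested beside the fibre genes. The endothelial, pericyte and tenocyte counts are given above. Of 13 macrophage markers 1 rose and 0 fell, of 12 markers of fibro-adipogenic progenitors 1 rose and 0 fell, and none of 10 adipocyte, 9 Schwann cell and 5 red cell markers passed. Among 12 myogenic regulators and satellite cell genes 1 fell. Summed Schwann cell markers ran from 56.5 to 624 CPM in ambulatory and from 56.9 to 796 CPM in unloaded mice. Their median log2 change was 0.89, 2.07 and -1.65 in mice of letters a, b and c. That of the adipocyte markers was 0.30, 0.57 and -1.80. The differences between letters were not tested. The only lymphocyte or neutrophil marker with enough counts to test was Ptprc, and Ly6g was at 0 in every library, as was the brown fat marker Ucp1.

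Both sexes were in both groups, and no gene's response differed between them in edgeR at an adjusted p below 0.05 (0 of 15808; 297, or 1.88%, at an unadjusted p below 0.05; DESeq2 called 0). With 3 to 5 mice per sex and group this test has little power. The response of mKO mice, from 14 libraries of their own without ambulatory mKO replicate 2, called 1553 of 15813 genes (9.82%). Of 3083 genes called in controls and tested there, 3059 (99.2%) had the same direction, against 83.1% of all genes tested in both. The 1162 genes called in both with the same direction were 37.7% of these 3083 control calls. They were 75.9% of the 1531 mKO calls that were also tested in controls. A test of the difference between the responses called 0 of 16932 genes in edgeR with 30 libraries (410, or 2.42%, at an unadjusted p below 0.05) and 0 of 17055 with 29 (218, or 1.28%), and DESeq2 called 0. In mKO mice Myh2 changed by log2 -3.001 ± 0.50 SE, Fabp3 by -2.52 ± 0.30, Ckmt2 by -1.82 ± 0.24 and Maf by 0.92 ± 0.22, all called, beside -2.73, -2.10, -1.56 and 1.22 in controls. Other control calls were not called there. Among them were Myh1 (log2 1.39 ± 0.53 SE, adjusted p = 0.105), Mgll (-0.74 ± 0.42, adjusted p = 0.286) and Pfkl (-0.17 ± 0.24, adjusted p = 0.698). Their values in controls were 1.88, -1.01 and -0.63. These examples of both kinds were picked without a rule. A p that misses the threshold does not show that the responses were alike.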

How the data were processed

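RNA from the soleus of each mouse was sequenced as a directional total RNA library, per the labels. The deposited table holds raw counts of reads for every Ensembl gene, which the authors did not normalise; the submitters' processing notes name cutadapt 1.16, STAR 2.7.9a, featureCounts 1.6.3, DESeq2 1.34.0 and the builds GRCm39 and mm39. Strand setting, annotation release and filters: not given in the sources used here. Because the samples' protocol texts describe people on metformin and myotubes, only the library kit was used from them.

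The table holds 56980 genes, of which 52073 matched a symbol. From the 15 control libraries, counts were scaled by TMM and filtered by filterByExpr in edgeR 4.0.16 (R 4.3.3), and a robust quasi-likelihood model with terms for unloading and sex was fitted. The SE is the size of the log2 change divided by the square root of the F statistic. Folds come from this model and need not equal ratios of printed medians. Replicates are numbered in accession order, and the numbers pair no mice. No 2 libraries of a group agreed within sampling noise (chi-square per gene of at least 21.1). Myosin shares used counts per kilobase of transcript and the mitochondrial share used counts, with two-sided exact permutation tests.

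The part of the study described, its 53 gene lists (43 of pathways, 10 of cell markers) and the tests were chosen with earlier results of these data known. Genes are named by rule: among called genes with an official symbol, the 12 largest rises and 12 largest falls at a mean of at least 1 CPM, the 10 with the smallest p and the 8 with the highest mean CPM; the members with the smallest p in each list, at most 4; both catalytic AMPK subunits; and all sarcomeric myosins. Trim63, Fbxo32, Ppargc1a, Hspb1, Fhl2, Ldb3, Arntl, Dbp and the genes named only for a promoter match or for lacking one fall outside it and were chosen after their values were seen. Not every gene the rule allows is described, and some results are not reported here.

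As alternatives, DESeq2 1.42.0, limma 3.58.1 (weighted voom) and median-of-ratios size factors were run, along with no filter on low counts, a mean of at least 1 CPM, sex left out, the title letter added, models of all 30 libraries and of 29 without ambulatory mKO replicate 2, ambulatory replicates 1 and 8 left out, and each mouse left out. The procedure was tested on simulated counts for this comparison over 15600 genes, where it recovered 69 of 100 genes changed 2-fold and 96 of 100 changed 4-fold, with 8 false calls among 173. Those counts were drawn around a common mean per gene, without effects of sex or letter and without outlying mice. Far fewer genes changed than were called in the real comparison, all with a mean of at least 1 CPM. The rate of false calls in the real data was therefore not measured. Promoters are RefSeq's on GRCm38.p6. Gene positions are not given, since that is not the build of the counts.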

Additional observations from a re-analysis of the deposited data

Results flagged for a closer look

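In each named gene and share, the highest and the lowest mouse of a group were set against the rest of that group, and 33 of 284 such tests (11.6%) found a mouse far from the others. Chance gives about 1 in 20 only for normally spread values in independent tests. Unlogged CPM need not be spread so, and many of these genes vary together in the same mouse, so no excess over chance is claimed. The unit is normalised CPM, with the range of the other mice of the group.

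Ambulatory replicate 1 stood apart in several fast fibre genes, with Myh4 at 4620 CPM (others 13.7 to 1140), Actn3 at 1150 (32.7 to 354), Pvalb at 818 (58.2 to 261), Myhas at 6.36 (0.134 to 1.27), Prkag3 at 23.2 (5.48 to 13.8) and Gpd2 at 40.6 (20.9 to 30.1). Its share of Myh4 among adult myosins was 17% (others 0.0471% to 4.15%). It was also high in Ppargc1a at 481 (65.8 to 237) and Ccdc192 at 0.927 (0.134 to 0.41).

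Ambulatory replicate 7 was high in Myl3 at 5000 (2220 to 3350), Mb at 7890 (4260 to 5780), Bdh1 at 287 (91.9 to 172), Mgll at 170 (109 to 137), mt-Nd6 at 1080 (295 to 489), Pfkl at 22.2 (14.2 to 17.6) and Psmb5 at 118 (52.7 to 73.4).

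Ambulatory replicate 8 was high in Ankrd1 at 55.7 (16.1 to 32.5) and Ankrd23 at 722 (414 to 519), replicate 6 in Myh8 at 93.2 (11.1 to 27.3), Ppara at 133 (57.2 to 87.6) and Sv2b at 8.42 (2.47 to 5.09), replicate 2 in Esrrg at 207 (73.4 to 136) and replicate 5 in Col1a1 at 5610 (183 to 2720).

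Among unloaded mice, replicate 4 was high in Myh2 at 6210 (514 to 2870) and Myhas at 32.3 (2.98 to 14.7). Replicate 1 was high in Ppargc1a at 86.3 (48 to 63.7), Ndufs8 at 77 (52.1 to 59.2) and Mrpl34 at 13.8 (8.99 to 10.5). Replicate 2 was high in Sparc at 506 (104 to 243) and replicate 6 in Adamts8 at 25.4 (0.403 to 9.68). Replicate 5 was high in Tnfrsf12a at 17.8 (2.15 to 8.15) and low in Myl3 at 841 (1360 to 1740) and H19 at 133 (303 to 360).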

How the results depend on the processing

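The count of called genes was 3098, and 1882 with all 30 libraries in 1 model (910 higher and 972 lower), 2685 with 29, 3664 with DESeq2, 3506 with limma, 2494 with no low-count filter (1013 higher) and 3981 with the title letter added; over the mice left out in turn it ran from 2249 (without ambulatory replicate 7) to 3414 (without ambulatory replicate 1). Over the same omissions genes called higher ran from 919 to 1744, lower from 1270 to 1670, at least 2-fold higher from 227 to 387 and at least 2-fold lower from 295 to 385. None of the 3098 called genes that had a value changed direction in any of the 26 alternatives. Higher genes were 50.1% of the calls, and 44.7% with median-of-ratios size factors. The differences in share ranged, with each mouse left out, from 32.1 to 37.4 percentage points for Myh1, -32.9 to -30.1 for Myh2, 12.5 to 15.5 for Myh4, -20.4 to -14.5 for Myh7 and -0.779 to 0.0433 for mitochondrially encoded transcripts. That last difference turned to 0.0433 without ambulatory replicate 1 and to 0.0973 without ambulatory replicates 1 and 8 (exact permutation p = 0.89); it passed in neither. Of genes that were not called, Myh13 turned to log2 -0.0278 without ambulatory replicates 1 and 8, and Arntl to 0.308 in limma and 0.0166 with the letter added and ambulatory replicate 1 left out, a setting chosen after seeing the data, as was DESeq2 for the sex and genotype terms. With each mouse left out, Arntl ran from -0.260 to 0.104 (above 0 without ambulatory replicate 1 or 2 or unloaded replicate 2 or 3) and Dbp from -0.0493 to 0.512 (below 0 without ambulatory replicate 1 or 7). Myh4 was called in 6 alternatives. The cause of these changes was not tested. No paired analysis was possible because the replicate numbers name mice in accession order and pair none across groups. Genes near 1 CPM rest on about 14 to 21 counts per library.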
